A study of Mus musculus with 4 samples.

Results

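The cells described here were thymic iNKT cells that carried transcripts of Tnni1 or Htra3, and they made up a larger share of the cells from Hivep3-/- mice than of those from C57BL/6 mice. A cell was counted as a Tnni1 Htra3 cell when at least 2 of the 5 genes Tnni1, Htra3, Ecm1, Gcsam and Klrb1a were detected with at least 1 unique molecular identifier (UMI) each, with Tnni1 or Htra3 among them. Cd24a, which marks the earliest stage of iNKT development, had to be undetected, and fewer than 2 of the 6 cell cycle genes Top2a, Birc5, Ccnb2, Ube2c, Rrm2 and Pclaf could be detected. This rule took 570 of the 19647 cells that passed the quality filters, namely 77 of 10882 C57BL/6 cells and 493 of 8765 Hivep3-/- cells. Because the rule used measured transcripts, and because the set was chosen for its size in the Hivep3-/- libraries, its share by genotype and the levels of these 12 genes are given as descriptions with no test.

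The study profiled thymic iNKT cells by droplet-based 5' single-cell RNA sequencing to ask how loss of Hivep3 alters their development. Thymocytes that bound the PBS57-CD1d tetramer were enriched with magnetic beads and then sorted as an equal mix of CD44low and CD44high cells, so part of any share of cells was set by the sort. The C57BL/6 group comprised 2 wildtype C57BL/6 mice and the Hivep3-/- group 2 mice that lacked Hivep3 and had been backcrossed to C57BL/6. All 4 mice were untreated and 8 to 9 weeks old, each gave 1 library, and no batch is named in the labels. By the study's methods all mice were raised in 1 facility, but the C57BL/6 mice were bought and the Hivep3-/- line was provided by another laboratory, so genotype and source cannot be told apart.

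iNKT cells express a semi-invariant T cell receptor that recognizes lipids presented by CD1d, and they acquire effector functions while still in the thymus. After positive selection by double-positive thymocytes, Cd24a-positive stage 0 cells divide and give rise to iNKT1 cells (T-bet, IL-2Rβ, interferon γ), iNKT2 cells (PLZF, IL-4) and iNKT17 cells (RORγt, IL-17). Hivep3 encodes a zinc finger protein that acts as a transcription factor and as an adapter, and it is expressed early in this pathway. Tnni1 encodes the slow skeletal muscle form of troponin I, the inhibitory subunit of the troponin complex, and Htra3 a secreted serine protease, and neither is a classical marker of an iNKT subset. Ecm1 encodes an extracellular matrix protein, Gcsam a signalling protein of germinal centre lymphocytes, Klrb1a a C-type lectin-like receptor of the NKR-P1 family and Klhdc2 a substrate receptor of a cullin ubiquitin ligase.

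The genes that define the set lie on different chromosomes. On GRCm38, the build used for the counts, Tnni1 spans chr1:135779434-135810989 (+ strand), Htra3 chr5:35652023-35679782 (- strand), Ecm1 chr3:95734147-95739569 (- strand), Gcsam chr16:45610380-45622867 (+ strand), Klrb1a chr6:128609227-128623533 (- strand) and Klhdc2 chr12:69296681-69310687 (+ strand). The 250 bases upstream of the RefSeq start (GRCm38.p6) are shown, 5' to 3' on the gene's strand, for Tnni1 and Htra3, on which the rule rests, and for Klrb1a. They cover chr1:135799171-135799420 for the first of 2 Tnni1 starts, chr5:35679781-35680030 for Htra3 and chr6:128622935-128623184 for Klrb1a. Capitals mark matches to the Runx core motif, TGTGGT or TGCGGT, searched on both strands.
Tnni1: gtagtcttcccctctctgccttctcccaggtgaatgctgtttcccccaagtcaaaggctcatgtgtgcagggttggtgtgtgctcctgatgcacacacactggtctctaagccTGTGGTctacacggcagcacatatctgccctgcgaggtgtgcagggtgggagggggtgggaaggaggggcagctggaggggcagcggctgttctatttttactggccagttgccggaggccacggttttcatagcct
Htra3: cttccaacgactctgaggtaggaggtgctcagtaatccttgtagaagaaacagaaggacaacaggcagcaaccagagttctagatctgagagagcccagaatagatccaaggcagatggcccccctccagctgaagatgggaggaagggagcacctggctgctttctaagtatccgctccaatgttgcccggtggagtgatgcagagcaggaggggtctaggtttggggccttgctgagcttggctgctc
Klrb1a: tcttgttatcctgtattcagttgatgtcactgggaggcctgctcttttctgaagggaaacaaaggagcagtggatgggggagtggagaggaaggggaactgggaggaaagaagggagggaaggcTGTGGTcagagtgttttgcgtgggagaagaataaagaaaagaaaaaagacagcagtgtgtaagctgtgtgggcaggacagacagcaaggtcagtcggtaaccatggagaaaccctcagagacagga

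The Tnni1 window held 1 match, whose first base lay 137 bases before the start, and the Klrb1a window 1 match at 126 bases, while the Htra3, Ecm1 and Gcsam windows held none. The Klhdc2 window held 1 match to TGCGGT, at 65 bases. Of 32851 RefSeq promoter windows of the same length, 14.0% held TGTGGT, 5.10% TGCGGT and 18.6% either. The E-box motif CANNTG, which reads the same on both strands, was found 4 times in the Tnni1 window, 3 times in that of Htra3, 2 times each in those of Ecm1 and Klhdc2 and once each in those of Gcsam and Klrb1a, and 66.2% of all windows held it. None of these E-box matches overlapped a Runx match. The NF-kB motif, which 7.25% of all windows held, had 0 matches in these 6 windows. The window of the second Tnni1 start, which is not shown, held 2 Runx matches, 2 E-box matches and 0 NF-kB matches. These matches describe letters in a window and were not tested for binding.

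The 4 libraries held 8374 and 4243 barcodes for C57BL/6 replicates 1 and 2 and 5019 and 4643 for Hivep3-/- replicates 1 and 2, of which 7231, 3651, 4598 and 4167 were kept. Kept cells had a median of 4596 to 6833 UMIs, the C57BL/6 libraries being the shallower. Between 18 and 43 barcodes of kept cells were shared by a pair of libraries, and none of them was a Tnni1 Htra3 cell in both. Xist, which female cells express, was at 305 CPM in the other Cd24a-negative, non-dividing cells of C57BL/6 replicate 1 and at 0.154, 0.871 and 0.134 CPM in the other 3 libraries, so the C57BL/6 libraries differed in this transcript. Over the pooled Tnni1 Htra3 cells the Y-linked gene Uty was at 2.54 CPM in C57BL/6 and 11.2 CPM in Hivep3-/- mice. By these transcripts sex was not balanced between the genotypes, and the tests did not adjust for it. The study describes its C57BL/6 mice as female. Hivep3 itself cannot check the genotype here, since the deleted part of the gene is not given in the sources used and 5' counting can read transcripts upstream of a deletion. In Tnni1 Htra3 cells the Hivep3 level, in UMIs scaled to a total of 1000000 (CPM), was 75.6 and 69.5 for C57BL/6 and 187 and 114 for Hivep3-/- mice. That difference, 0.93 on the log2 scale, did not pass the quasi-likelihood test of edgeR (Benjamini-Hochberg adjusted p = 0.104), although it did without Hivep3-/- replicate 2 (1.22, adjusted p = 0.00216) and with no filter on low counts (0.99, adjusted p = 0.00421).

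Tnni1 Htra3 cells were several times more frequent in both Hivep3-/- libraries than in either C57BL/6 library. They made up 0.802% of kept cells in C57BL/6 replicate 1 (58 cells, 95% exact binomial interval 0.610 to 1.04%) and 0.520% in replicate 2 (19 cells, 0.314 to 0.811%). In Hivep3-/- replicate 1 they made up 4.63% (213 cells, 4.04 to 5.28%) and in replicate 2 6.72% (280 cells, 5.98 to 7.52%). The genotypes did not overlap, with means of 0.661% ± 0.199 and 5.68% ± 1.48 (SD, n = 2), a fold of 8.58. These intervals cover counting error only. Of Cd24a-negative, non-dividing cells alone, the set was 0.765% ± 0.255 in C57BL/6 and 6.34% ± 1.93 in Hivep3-/- mice (SD, n = 2).

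The size of the gap depended on depth and on how strict the rule was, and its direction did not under the settings run. Every setting drew on the same 5 markers, for a set chosen by its size in Hivep3-/- mice, so they do not test the direction. More cells and higher marker levels per cell cannot be told apart here. With every cell thinned to 2000 UMIs, so that all had the same depth, and shallower cells (502, 91, 82 and 75) left out, the shares were 0.145% ± 0.0467 and 2.83% ± 1.12, a fold of 19.5 (SD, n = 2). With at least 3 of the 5 markers they were 0.200% ± 0.0890 and 3.82% ± 0.637, a fold of 19.1, and with Tnni1 and Htra3 both detected 0.159% ± 0.108 and 2.35% ± 0.777, a fold of 14.8. Without the 5% of cells of each library with the highest doublet scores, the shares were 0.638% ± 0.168 and 5.55% ± 1.41. Members had more UMIs than the other Cd24a-negative, non-dividing cells, with medians of 8923, 13001, 11407 and 10001.5 UMIs in the 4 libraries against 4110, 5008, 6662 and 6059. The cells of highest doublet score held 10.3%, 5.26%, 6.57% and 7.50% of the members, against 5% of all cells by construction, and the part of doublets in the set was not tested further. The caller's own threshold marked 7, 14, 11 and 57 cells, too few to be relied on.

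**Figure D1:**
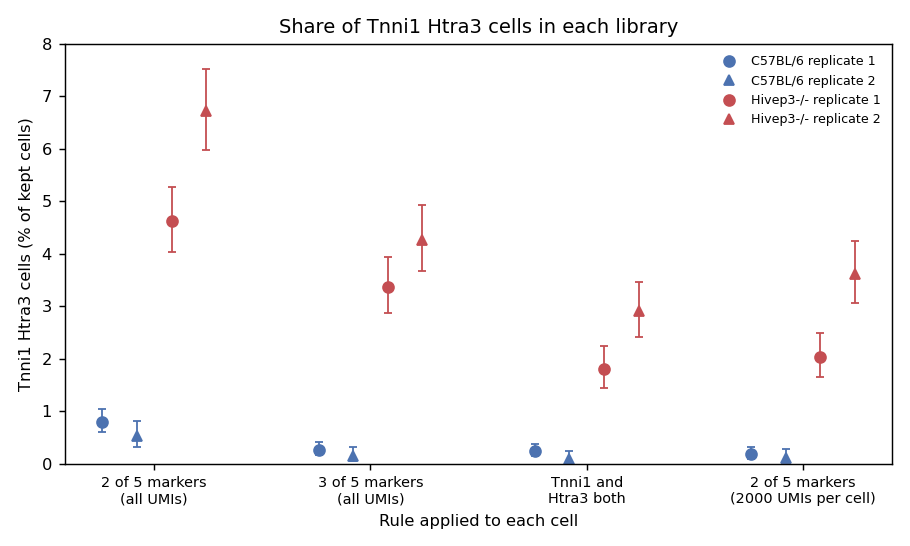
Share of Tnni1 Htra3 cells among kept cells (y axis, percent) in each library under 4 forms of the rule (x axis). Points are libraries and bars are 95% exact binomial intervals. Under each form both Hivep3-/- libraries lie above both C57BL/6 libraries, as with 4.63% and 6.72% against 0.802% and 0.520% under the rule as used.

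Members of the Hivep3-/- libraries carried more of the markers per cell. In C57BL/6 mice 32.8% and 26.3% of the members had 3 or more of the 5 markers, and in Hivep3-/- mice 72.8% and 63.6%. Tnni1 and Htra3 were detected together in 17 and 3 members of the C57BL/6 libraries and in 83 and 121 members of the Hivep3-/- libraries. Tnni1 without Htra3 was detected in 28, 13, 92 and 112 members, and Htra3 without Tnni1 in 13, 3, 38 and 47. In the C57BL/6 libraries, then, most members (39 and 14) had exactly 2 markers and stood at the edge of the rule, while 58 and 102 did so in the Hivep3-/- libraries.

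Cells just outside the rule, with Tnni1 or Htra3 but no other marker, numbered 76 and 25 for C57BL/6 and 46 and 57 for Hivep3-/- mice. Klhdc2, a marker named with the set that the rule did not use, graded across this edge in Hivep3-/- mice. It was at 195 and 239 CPM in the cells just outside, at 362 and 453 CPM in members with exactly 2 markers and at 692 and 576 CPM in members with 3 or more. In the C57BL/6 libraries the same 3 steps gave 87.9, 108 and 201 CPM in replicate 1 and 53.7, 74.8 and 41.7 CPM in replicate 2, the last from 5 cells. A further 30, 5, 43 and 44 cells had 2 or more markers but neither Tnni1 nor Htra3. Cell cycle genes alone kept out another 35, 14, 51 and 141 cells. These were 37.6%, 42.4%, 19.3% and 33.5% of the Cd24a-negative cells that met the marker part of the rule. That filter thus left out a larger part in both C57BL/6 libraries than in either Hivep3-/- library.

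By the rule, the 5 markers were much higher in the set than in the other Cd24a-negative, non-dividing cells of the same libraries. Tnni1 was at 257 and 135 CPM in the set in C57BL/6 mice and at 453 and 452 CPM in Hivep3-/- mice, against 2.67, 1.18, 1.43 and 1.83 CPM in the other cells. Tnni1 was detected in 0.972%, 0.557%, 0.492% and 0.537% of those other cells. It was in 0 of 432 cells with iNKT17 markers over the 4 libraries, which allows a share of cells with a UMI of up to 0.694%, as was Htra3. Of the other cells, 0.216% to 1.16% had Htra3, 4.40% to 6.17% Ecm1, 0.371% to 1.55% Gcsam, and 1.71%, 2.23%, 6.40% and 8.17% Klrb1a, and Ecm1 was in 23.3% of the iNKT2-marker cells of Hivep3-/- replicate 1. Htra3 was at 81.3, 34.7, 165 and 159 CPM in the set, Ecm1 at 127, 61.7, 143 and 104 CPM, Gcsam at 30.2, 42.4, 70.5 and 46.3 CPM and Klrb1a at 58.6, 27.0, 260 and 261 CPM. Of the 5 markers, Tnni1, Htra3, Gcsam and Klrb1a were higher in both Hivep3-/- libraries than in either C57BL/6 library, while the genotypes overlapped for Ecm1. Among non-dividing Cd24a-positive cells, the stage 0 cells that the rule kept out, Tnni1 was at 5.69 and 5.98 CPM in C57BL/6 and at 32.0 and 61.6 CPM in Hivep3-/- mice.

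**Figure D2:**
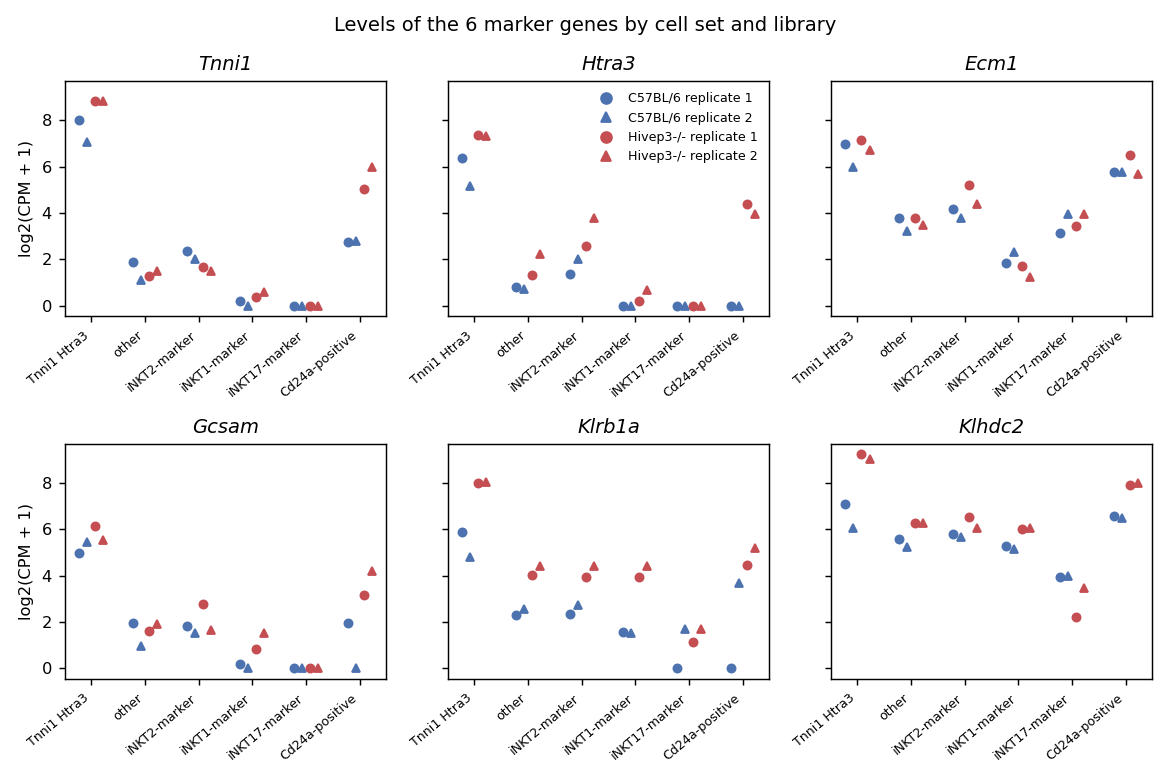
Levels of the 6 marker genes, as log2(CPM + 1) (y axis), in 6 sets of cells (x axis) summed per library, with 1 point per library. Each gene is highest in Tnni1 Htra3 cells in every library, for example Tnni1 at 257, 135, 453 and 452 CPM, except Klhdc2 in C57BL/6 replicate 2, at 65.6 CPM in the set and 89.6 CPM in Cd24a-positive cells.

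Most members of the Hivep3-/- libraries grouped together by genes other than those of the rule, and fewer of the C57BL/6 members did. When each library was clustered without the 12 rule genes, 88.3% and 83.9% of the Hivep3-/- members fell in 1 cluster each, of 366 and 486 cells, of which members were 51.4% and 48.4%. These clusters were led by Igfbp4, Plac8, Nme4, Steap3 and Tmem108 in replicate 1 and by Plac8, Igfbp4, Steap3, Syne1 and Atp1b1 in replicate 2. In C57BL/6 replicate 1 the cluster with most members, led by Itm2a, Gm43352, Nrgn, Tnfsf8 and H19, held 56.9% of them and they were 6.50% of its 508 cells. In C57BL/6 replicate 2 the corresponding cluster, led by Hells, Ung, Il13, Ccr9 and Igfbp4, held 47.4%, and they were 3.14% of its 287 cells. No cell type name was given to these clusters.

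Compared with the other Cd24a-negative, non-dividing cells of the same Hivep3-/- libraries, the set was high in Igfbp4, Plac8 and early T cell genes and low in effector genes of iNKT1 cells. Members were chosen by their transcripts, so these ratios, log2 of (CPM + 5) in the set over the other cells, are descriptions. Igfbp4, which encodes an insulin-like growth factor binding protein, was at 850 and 809 CPM in the set and at 69.0 and 103 CPM in the other cells. In the C57BL/6 set it was higher still, at 1032 and 1227 CPM, a difference that did not pass edgeR's test (-0.53, adjusted p = 0.116). Plac8, a small cysteine-rich protein, was at 308 and 360 CPM against 26.5 and 47.4 CPM. Klhdc2 followed with 605 and 534 CPM against 77.5 and 76.7 CPM.

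The next genes by this ratio had varied roles. Tsc22d1, a leucine zipper transcription regulator, had ratios of 2.15 and 2.35, Syne1, a nuclear envelope protein, 2.16 and 2.13, Steap3, a ferrireductase, 2.61 and 2.10, and Lat2, a signalling adapter, 1.92 and 1.96. Atp1b1, a subunit of the sodium pump, had ratios of 2.03 and 1.89. Nebl and Jup, which encode the actin-binding protein nebulette and the junction protein plakoglobin, had 2.25 and 1.84, and 2.24 and 1.82. Tmem108 and the actin-severing protein gene Gsn had 2.67 and 1.81, and 2.26 and 1.76. The tetraspanin Cd81 had 2.18 and 1.78. The transcription regulators Id3 and Ikzf2 (Helios) reached 2.16 and 1.77, and 1.76 and 1.77. The last 3 belong to the stage 0 list.

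At the other end, transcripts of cytotoxic iNKT1 cells were scarcer in the set than in the other cells, many of which were iNKT1-marker cells. Ccl5, which encodes a chemokine, was at 74.7 and 86.9 CPM in the Hivep3-/- set against 2093 and 1977 CPM in the other cells. The granzyme gene Gzmb was at 27.8 and 18.6 CPM against 559 and 552 CPM, and Gzma at 14.1 and 2.80 CPM against 209 and 207 CPM. The receptor genes Klrc1 (7.05 and 6.66 CPM against 262 and 218) and Klra5 (2.90 and 11.6 CPM against 226 and 275) were also low. Klrk1, the gene of NKG2D, Ly6a, Ifitm2, Fgl2 and 5830411N06Rik completed the 10 lowest, with ratios from -4.39 to -3.41. Against the iNKT2-marker cells outside the set, whose definition allows at most 1 iNKT1 class gene, most of these genes were instead higher in the set, with ratios of 2.32 and 2.33 for Ccl5, 2.63 and 1.79 for Gzmb and 2.32 and 2.13 for Klrk1, while Ly6a (-4.36 and -3.87) and 5830411N06Rik (-2.17 and -3.01) were lower there as well.

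Gene lists were also read as a whole against the other cells, of which 51.9% and 49.5% were iNKT1-marker cells in Hivep3-/- mice. Against them the Hivep3-/- set was low for effector programs, close for the T cell receptor complex and higher for stage 0 genes. Of 5723 genes with at least 20 CPM, 116 (2.03%) were higher and 177 (3.09%) lower in the set by more than 1 on the log2 scale in both Hivep3-/- libraries, and the median ratio over all of them was 0.14. Of 18 iNKT1 genes 14 were lower by more than 1 (median -2.72), and of the 11 NK receptor genes at that level 8 were (-2.93). Among cytokines 6 of 9 were lower by more than 1 (-2.12), and all 3 iNKT17 genes at that level were (-2.25). The iNKT2 list had 2 genes higher and 2 lower of 9 (0.49), and the 12 T cell receptor and CD3 genes had none past 1 in either direction (-0.15). Of 18 stage 0 genes 6 were higher by more than 1 (0.83), among them Pdcd1 (PD-1), with ratios of 2.05 and 1.56, and Sox4, with 1.92 and 1.22. All 10 cycling genes at that level were higher in both libraries, as were 58.5% of all 5723 genes. Of the 10, 3 were higher by more than 1 (0.96), including Mcm3 (1.54 and 1.38) and Stmn1 (1.44 and 1.41), although the rule admitted no more than 1 of its 6 cell cycle genes. Against iNKT2-marker cells, whose definition allows at most 1 iNKT1 class gene, the iNKT1 and NK receptor lists were instead higher in the set. In Hivep3-/- replicates 1 and 2 the summed iNKT1 list was at 4090 and 4133 against 1403 and 1244 CPM. The summed NK receptor list was at 1120 and 1324 against 118 and 110 CPM. The summed cytokine and iNKT17 lists were lower in the set there as well.

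Of the marker genes of other cell types, Ms4a1, Lyz2, Csf1r, Flt3, Foxp3, Rag1, Ptcra, Krt5 and Krt8 had 0 UMIs in all 570 members together, and others were detected. The summed B cell list was at 42.4 to 126 CPM in the set and at 86.1 to 138 CPM in the other cells, nearly all of it Ighm, and the summed myeloid list at 127 to 141 and 131 to 171 CPM, nearly all of it Cst3. The γδ T cell list was at 117 to 235 and 151 to 285 CPM, with Trdc at 0 to 0.701 CPM in the set. The double-positive thymocyte list was at 7.72 to 26.5 and 17.2 to 28.4 CPM, the regulatory T cell list at 2.07 to 11.6 and 7.42 to 11.3 CPM, the list of NK and innate lymphoid cells at 0 to 4.56 and 11.5 to 48.2 CPM, and the erythroid and epithelial list at 3.86 to 28.2 and 5.97 to 18.6 CPM. The NK and innate lymphoid list was thus lower in the set than in the other cells of every library. Immediate-early and heat shock genes, which can follow tissue dissociation, were lower in the set than in the other cells for 9 of 9 genes at that level, 5 by more than 1 (-1.33), where 26.4% of all 5723 genes were lower in both Hivep3-/- libraries. The median share of mitochondrial UMIs was 2.39%, 2.59%, 1.80% and 2.52% in members and 2.65%, 3.12%, 2.10% and 2.73% in the other cells. The part of these lists and differences in the levels above was not tested. Of the other sarcomere genes, Tpm1, Tpm4 and Tnnt1 were at 30.9 to 84.2, 212 to 350 and 9.11 to 19.3 CPM in the set and none of the 4 sarcomere genes tested passed the test between genotypes given below, while Tnni2, Tnnt2, Tnnc2 and Actc1 had 0 UMIs. Htra1 and Htra4, paralogs of Htra3, also had 0 UMIs.

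The classes of the members differed between the genotypes, with 37.9% and 68.4% of the C57BL/6 members and 19.7% and 12.5% of the Hivep3-/- members in the iNKT2 class. A cell was put in a class when at least 3 of 6 class genes were detected with at most 1 of each other class. In C57BL/6 replicates 1 and 2, 22 and 13 members were iNKT2-marker cells and 2 and 0 iNKT1-marker cells, and in Hivep3-/- replicates 1 and 2, 42 and 35 were iNKT2-marker and 29 and 48 iNKT1-marker cells. None was an iNKT17-marker cell, and 34, 6, 142 and 197 were in no class. Put the other way, the set took 1.73% and 3.62% of all iNKT2-marker cells in C57BL/6 mice and 11.4% and 9.28% in Hivep3-/- mice. It took 0.0960% and 0% of iNKT1-marker cells in C57BL/6 mice and 1.36% and 2.81% in Hivep3-/- mice.

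Because members were deeper than other cells, the class genes were also counted with every cell thinned to 2000 UMIs. Members then had a mean of 0.793 and 0.316 iNKT1 genes in C57BL/6 mice and 1.28 and 1.39 in Hivep3-/- mice, against 2.02 to 2.61 in the other cells of the 4 libraries. The mean number of iNKT2 genes was 1.60 and 1.37 in C57BL/6 members and 0.911 and 0.703 in Hivep3-/- members, against 1.25, 0.988, 0.667 and 0.669 in the other cells. At most 1 gene of each class was detected in 37.9%, 47.4%, 47.4% and 47.3% of members and in 17.4%, 13.5%, 14.8% and 19.3% of other cells. By these genes the C57BL/6 members therefore lay nearer to iNKT2 cells and the Hivep3-/- members had more iNKT1 genes. Differences between genotypes within the set may include this difference in make-up, whose part was not tested. The class genes also belong to the iNKT1 and iNKT2 lists compared below, so classes and lists are not independent readings. A change in make-up and a change in the level of these genes per cell cannot be told apart here.

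**Figure D3:**
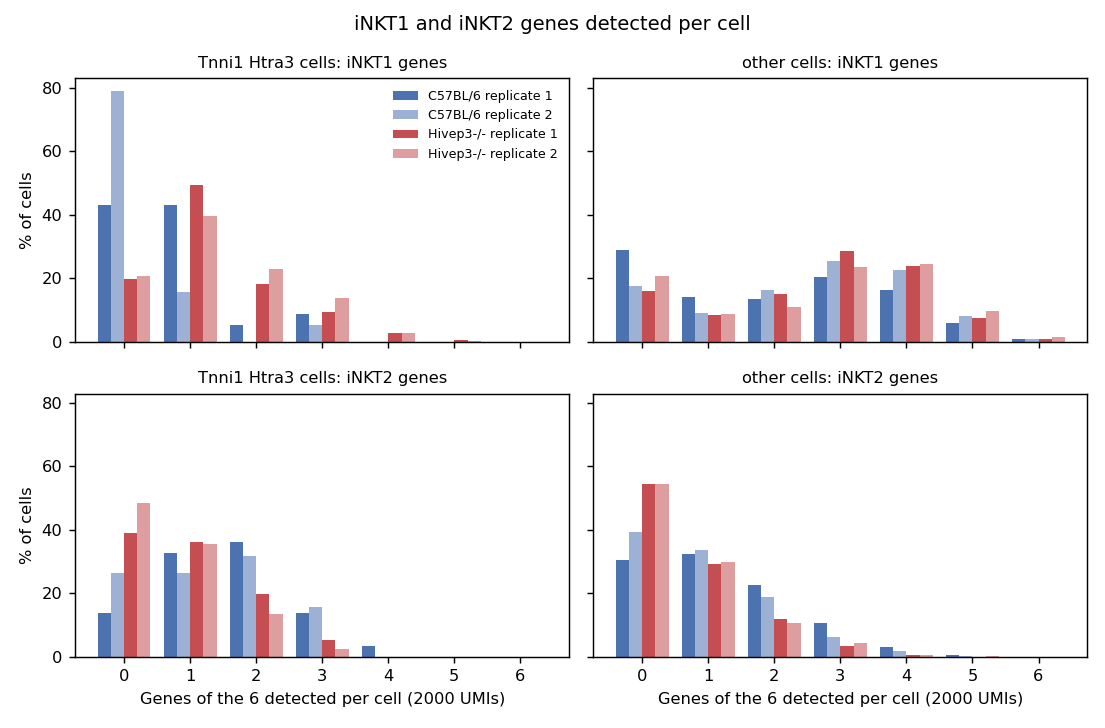
Number of the 6 iNKT1 genes (top) and 6 iNKT2 genes (bottom) detected per cell after thinning to 2000 UMIs (x axis), as a percentage of cells (y axis), in Tnni1 Htra3 cells (left) and other Cd24a-negative, non-dividing cells (right), with 1 bar per library. Most members have 0 to 2 iNKT1 genes, with means of 0.793, 0.316, 1.28 and 1.39, and the other cells have means of 2.02 to 2.61.

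Within the set, iNKT1-associated genes were mostly higher and iNKT2-associated genes mostly lower in Hivep3-/- mice. UMIs were summed over the members of each library (529024 and 259158 UMIs in C57BL/6, 2411003 and 2853255 in Hivep3-/- mice) and the 2 genotypes compared with edgeR's quasi-likelihood test. Of 8320 genes tested, 235 passed at an adjusted p under 0.05 (2.82%), 105 higher (1.26%) and 130 lower (1.56%) in Hivep3-/- mice, and the median log2 difference over all genes was 0.02. The number rested on the test and on the rule: DESeq2 called 152, and 99 were called among members with at least 3 markers, where C57BL/6 mice had 19 and 5 cells. The genotypes did not overlap in any of the genes named below as the 10 largest rises and falls, as that rule required.

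The iNKT2 list fell almost as a whole. Of its 14 genes, all tested, 11 were called lower, none higher, and the median difference was -2.13. Among members with at least 3 markers, where the C57BL/6 mice had 19 and 5 cells, 3 of its genes were called lower. Some of the lost calls kept their difference there, such as Zbtb16 (-1.08, adjusted p = 0.0613 by edgeR) and Ccr7 (-1.18, adjusted p = 0.236 by edgeR), and others were smaller, such as Icos (-1.05, adjusted p = 0.16 by edgeR). Ccr9, the receptor that guides thymocytes to CCL25, was at 250 and 328 CPM in the C57BL/6 set and at 2.49 and 1.40 CPM in the Hivep3-/- set. The pooled counts gave a 145-fold lower level (95% exact interval 77.3 to 307), and the fitted difference was -7.25 (SE 0.32, adjusted p = 1.52e-07 by edgeR). Exact intervals of pooled ratios, here and below, cover counting error only and leave out the spread between mice. Il13, a type 2 cytokine gene, went from 132 and 116 CPM to 4.56 and 4.91 CPM, 26.7-fold lower (17.1 to 43.2), and was not called among members with at least 3 markers (adjusted p = 0.0906 by edgeR).

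Other iNKT2 genes fell by less. Il4 was at 108 and 92.6 CPM in C57BL/6 and at 24.5 and 15.1 CPM in Hivep3-/- mice (log2 -2.47, SE 0.29, adjusted p = 0.000428 by edgeR). Zbtb16, which encodes PLZF, the transcription factor that directs innate-like T cell development, was at 397 and 320 CPM and at 209 and 148 CPM (-1.12, SE 0.19, adjusted p = 0.00649 by edgeR). Both cytokine and regulator were thus present in the C57BL/6 set at levels that no Hivep3-/- library reached. The costimulator gene Icos went from 353 and 309 CPM to 87.9 and 63.8 CPM (-2.23, adjusted p = 5.13e-05 by edgeR), and Cd4 from 45.4 and 65.6 CPM to 8.71 and 2.45 CPM (-3.38, adjusted p = 0.00299 by edgeR). The IL-25 receptor gene Il17rb went from 30.2 and 42.4 CPM to 4.15 and 3.50 CPM (-3.26, adjusted p = 0.00208 by edgeR). Plac8 fell by 1.10 and the chemokine receptor gene Ccr7 by 1.36 on the log2 scale.

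The calls of 2 iNKT2 genes were fragile. Gata3, the type 2 lineage regulator, was at 219 and 216 CPM and at 153 and 117 CPM (-0.78, adjusted p = 0.0441 by edgeR), and the adjusted p was 0.101, 0.0691 and 0.173 without C57BL/6 replicate 1, C57BL/6 replicate 2 and Hivep3-/- replicate 2. Il6ra, at 22.7 and 15.4 CPM and at 5.39 and 2.80 CPM (adjusted p = 0.0361 by edgeR), had adjusted p values of 0.425, 0.671 and 0.572 without C57BL/6 replicate 1, Hivep3-/- replicate 1 and Hivep3-/- replicate 2. Izumo1r (folate receptor 4), at 380, 301, 270 and 257 CPM, Slamf6, at 208, 205, 174 and 164 CPM, and Maf (-2.02, adjusted p = 0.0589 by edgeR) did not pass.

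Of 16 iNKT1 genes tested, 7 were called higher and 1 lower, with a median of 1.09. Without C57BL/6 replicate 2, 4 were called higher, and among members with at least 3 markers 2 were. Il2rb, which encodes IL-2Rβ (CD122), was at 221 and 84.9 CPM in the C57BL/6 set and at 843 and 665 CPM in the Hivep3-/- set (log2 2.10, SE 0.28, adjusted p = 0.00134 by edgeR). In Hivep3-/- mice it stood above the other cells (524 and 439 CPM) and in C57BL/6 mice below them (352 and 503 CPM). Fcer1g, a signalling adapter of Fc and NK receptors, went from 465 and 309 CPM to 934 and 973 CPM (1.18, SE 0.19, adjusted p = 0.00477 by edgeR). Among members with at least 3 markers its difference was smaller and not called (0.41, adjusted p = 0.594 by edgeR). Ctsw, a cathepsin of cytotoxic cells, was at 546 and 293 CPM and at 988 and 888 CPM (1.03, adjusted p = 0.0261 by edgeR).

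Several iNKT1 genes rose within the set yet stayed well below their level in the other cells. Nkg7, a granule protein gene, was at 195 and 100 CPM and at 311 and 500 CPM in the set, and at 710 to 1351 CPM in the other cells. Klrd1 (CD94) went from 28.4 and 69.5 CPM to 108 and 220 CPM, Ly6c2 from 45.4 and 23.2 CPM to 110 and 89.7 CPM and Ccl5 from 28.4 and 0 CPM to 74.7 and 86.9 CPM. Their differences were 1.30, 1.85, 1.32 and 2.04 on the log2 scale, with adjusted p values by edgeR of 0.0345, 0.0478, 0.0274 and 0.0435. Without C57BL/6 replicate 2 the adjusted p was 0.0577 for Nkg7, 0.0798 for Ly6c2 and 0.189 for Ctsw, and DESeq2 did not call Ccl5 (adjusted p = 1) or Ly6c2 (adjusted p = 0.126). Id2, an inhibitor of E proteins, was the 1 gene of the list called lower (1021 and 822 CPM against 510 and 486 CPM, -0.99, adjusted p = 0.00506 by edgeR). Tbx21, which encodes T-bet, was at 1.89 and 3.86 CPM and at 17.4 and 14.7 CPM and did not pass (adjusted p = 0.11 by edgeR), and Xcl1, Ifng, Gzmb and Klrb1c (NK1.1) did not either.

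**Figure D4:**
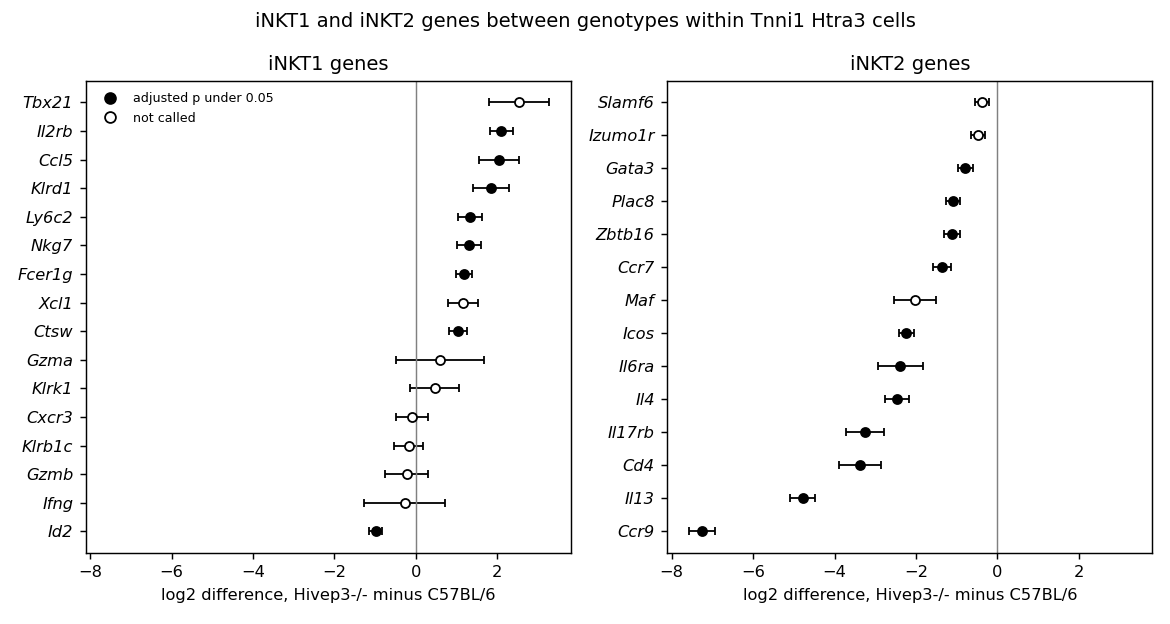
Difference between genotypes within Tnni1 Htra3 cells (x axis, log2, Hivep3-/- minus C57BL/6) for each tested gene of the iNKT1 list (left, 16 genes) and the iNKT2 list (right, 14 genes). Bars are standard errors and filled points passed edgeR's test at an adjusted p under 0.05, 8 of the iNKT1 genes (7 to the right of 0) and 11 of the iNKT2 genes (all to the left of 0).

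NK receptors of the Ly49 family and parts of the T cell receptor complex were higher in the Hivep3-/- set. Of 9 NK receptor genes tested 4 were called higher and none lower (median 1.79). Klra1 was at 318 and 108 CPM in C57BL/6 and at 800 and 875 CPM in Hivep3-/- mice (log2 1.79, SE 0.30, adjusted p = 0.00604 by edgeR), and Klra7 at 26.5 and 19.3 CPM and at 82.5 and 102 CPM (1.86, adjusted p = 0.00631 by edgeR). Klra6 had 0 UMIs in the C57BL/6 set against 14.1 and 16.5 CPM, at least 4.04-fold higher against a floor of 3 counts over the C57BL/6 set, and lost its call without C57BL/6 replicate 1 (adjusted p = 0.139 by edgeR). These genes share sequence, so reads can be split among them. DESeq2 called 2 of the 9, not Klra1 or Klra6.

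Of 12 T cell receptor and CD3 genes 3 were called higher and none lower (median 0.12). Cd247, which encodes CD3ζ, went from 140 and 120 CPM to 460 and 371 CPM (log2 1.56, SE 0.19, adjusted p = 0.00057 by edgeR), and Trbc1 from 117 and 88.7 CPM to 259 and 229 CPM (1.11, adjusted p = 0.00831 by edgeR). Cd3e, at 739 and 702 CPM and at 1220 and 1194 CPM, passed narrowly (0.65, adjusted p = 0.0388 by edgeR), with adjusted p values of 0.16 and 0.292 without C57BL/6 replicate 1 and replicate 2. Cd3d and Cd3g, at 1161 to 1423 and 988 to 1344 CPM, had differences of 0.07 and 0.14. Of 9 genes induced by T cell receptor signals, Ubash3b, a phosphatase that dampens those signals, was the 1 called, from 52.9 and 46.3 CPM to 217 and 192 CPM (1.92, SE 0.22, adjusted p = 0.000428 by edgeR), while Egr1 was at 98.3, 65.6, 105 and 59.9 CPM.

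Genes of thymic exit and homing moved in opposite directions. Of 11 tested, 4 were called higher and 2, Ccr7 and Ccr9, lower (median 0.95). S1pr1, the receptor through which T cells leave the thymus, was at 15.1 and 15.4 CPM in C57BL/6 and at 62.6 and 62.0 CPM in Hivep3-/- mice (log2 1.94, SE 0.34, adjusted p = 0.00698 by edgeR). Klf2, which activates S1pr1, was at 113 and 30.9 CPM and at 538 and 216 CPM (2.09, SE 0.44, adjusted p = 0.0224 by edgeR). The integrin gene Itgb7 went from 96.4 and 88.7 CPM to 301 and 230 CPM (1.41, adjusted p = 0.00261 by edgeR). DESeq2 called 2 of these 4 higher, not S1pr1 (adjusted p = 0.0675) or Klf2 (adjusted p = 0.522), and 1 was called among members with at least 3 markers.

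Among 17 transcription factor genes tested, 3 were called higher and 5 lower (median 0.38), and 5 were called higher without Hivep3-/- replicate 2. Runx3, a regulator of cytotoxic and iNKT1 genes, was at 24.6 and 15.4 CPM in the C57BL/6 set and at 109 and 99.5 CPM in the Hivep3-/- set (log2 2.19, SE 0.30, adjusted p = 0.0015 by edgeR). Ikzf2 was at 147 and 57.9 CPM and at 422 and 497 CPM (1.95, SE 0.28, adjusted p = 0.00221 by edgeR). Tcf7 (TCF-1) went from 62.4 and 81.0 CPM to 171 and 174 CPM (1.22, adjusted p = 0.00905 by edgeR), but not past the threshold without C57BL/6 replicate 1 (0.0725). Its relative Lef1 went the other way, from 779 and 656 CPM to 423 and 337 CPM (-1.02, adjusted p = 0.00491 by edgeR), as did Bcl11b, from 79.4 and 96.5 CPM to 32.8 and 29.1 CPM (-1.57, adjusted p = 0.00477 by edgeR). Zbtb16, Gata3 and Id2 were the other 3 called lower.

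Of 18 stage 0 genes 4 were called, where 2.82% of all genes tested were. Ikzf2 was higher and Lef1, Cd28 and Ldhb were lower, with a median of -0.19 over the list, and of 10 cycling genes Stmn1 was called lower (227 and 216 CPM against 100 and 140 CPM, -0.96, adjusted p = 0.0338 by edgeR). Cd28 lost its call without C57BL/6 replicate 1 (adjusted p = 0.16) and Stmn1 without Hivep3-/- replicate 1 (adjusted p = 0.163 by edgeR). None of 9 stress genes tested was called. Ighm, the 1 B cell gene tested, was called higher (51.0 and 42.4 CPM against 118 and 97.4 CPM, adjusted p = 0.0361 by edgeR), where Ms4a1 had 0 UMIs, and it lost its call without C57BL/6 replicate 1 (0.0604), C57BL/6 replicate 2 (0.0948) or Hivep3-/- replicate 1 (0.053). The γδ T cell receptor gene Tcrg-C1 was called lower (64.3 and 69.5 CPM against 27.8 and 21.4 CPM, -1.53, adjusted p = 0.0102 by edgeR).

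A list of genes that the study itself discusses was tested in the set as well. It was drawn up on these samples, so it is not independent evidence of direction. Of 25 tested, 4 were called higher (7 without Hivep3-/- replicate 2) and 13 lower, with a median of -1.10. Drosha, the nuclease that starts microRNA processing, was at 336 and 475 CPM in the C57BL/6 set and at 39.0 and 24.5 CPM in the Hivep3-/- set (log2 -3.75, SE 0.25, adjusted p = 4.84e-06 by edgeR). Hdac7, a class IIa histone deacetylase gene, was at 28.4 and 27.0 CPM and at 143 and 74.3 CPM (1.85, SE 0.38, adjusted p = 0.0187 by edgeR). Its difference was similar but not called among members with at least 3 markers (1.89, adjusted p = 0.245 by edgeR). The same held without the highest doublet scores (1.94, adjusted p = 0.0605 by edgeR). The anti-apoptotic genes Bcl2a1b and Bcl2a1d, near-identical paralogs between which reads may be split, went from 87.0 and 112 CPM to 13.3 and 17.9 CPM and from 79.4 and 69.5 CPM to 7.47 and 10.2 CPM. Cd52, a surface glycoprotein gene, was at 4573 and 4472 CPM and at 1767 and 2108 CPM (-1.31, adjusted p = 0.000856 by edgeR).

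The largest rises among called genes, of which 8 are described, were chosen by fitted difference from the 100 that met the naming rule and were of genes nearly absent from the C57BL/6 set. Tyrobp, the adapter DAP12 of activating NK receptors, had 0 UMIs in the C57BL/6 members and 35.7 and 28.7 CPM in the Hivep3-/- libraries, at least 8.38-fold higher against the floor of 3 counts (adjusted p = 0.00401 by edgeR). Cx3cr1, the fractalkine receptor gene, went from 7.56 and 0 CPM to 63.0 and 61.0 CPM, a ratio of 12.2 (95% exact interval 4.72 to 45.1), and the adhesion gene Jaml from 5.67 and 3.86 CPM to 65.9 and 77.1 CPM, a ratio of 14.2 (5.50 to 52.3). Tyrobp and Cx3cr1 were not called among members with at least 3 markers (adjusted p = 0.384 and 0.0908 by edgeR).

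The other 5 rises rested on 1 or 2 UMIs in the C57BL/6 set. The ratio was 27.8 (4.94 to 1106) for the pseudokinase gene Trib2, 23.4 (4.13 to 928) for the IL-9 receptor gene Il9r and 17.8 (3.14 to 709.6) for the transcription factor gene Klf3. It was 10.6 (2.89 to 88.6) for Tmem243 and 10.4 (2.83 to 86.8) for Zfp318. Klf3 lost its call without Hivep3-/- replicate 2 (adjusted p = 0.144 by edgeR), Tmem243 without C57BL/6 replicate 1 (0.142) or Hivep3-/- replicate 1 (0.0861), and Zfp318 without C57BL/6 replicate 1 (0.153) or Hivep3-/- replicate 2 (0.226). DESeq2 called none of these 5, with adjusted p values of 0.0675 to 0.273.

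The 10 largest falls, from 118 that met the rule, included Ccr9 and Il13. Akr1c18, a steroid dehydrogenase gene, was at 88.8 and 228 CPM in C57BL/6 members and had 0 UMIs in Hivep3-/- members, at least 236-fold lower against the floor of 3 counts (adjusted p = 3.55e-05 by edgeR). Lmo4, a LIM domain transcription cofactor gene, went from 335 and 467 CPM to 19.1 and 9.81 CPM, 26.9-fold lower (20.8 to 35.2, adjusted p = 2.1e-06 by edgeR). Cd74, the invariant chain of MHC class II, went from 94.5 and 15.4 CPM to 0.830 and 2.80 CPM, 36.1-fold lower (18.2 to 79.4), and Moxd1, a monooxygenase gene, from 34.0 and 104 CPM to 0.830 and 0.701 CPM, 75.1-fold lower (27.4 to 288). Both differed widely between the C57BL/6 libraries, a spread that their intervals leave out, though the genotypes did not overlap.

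The remaining 4 falls were of sparser genes. Pgam2, a muscle form of phosphoglycerate mutase, went from 20.8 and 23.2 CPM to 0 UMIs, at least 37.8-fold lower, Cldn5, a tight junction gene, from 24.6 and 15.4 CPM to 0 and 0.701 CPM, 2600014E21Rik from 24.6 and 23.2 CPM to 0 and 0.350 CPM and AC163354.1 from 51.0 and 23.2 CPM to 0 and 0.701 CPM. The pooled ratios of the last 3 were 56.8 (13.5 to 507), 127 (20.2 to 5273) and 110.2 (28.2 to 948). Without Hivep3-/- replicate 1 and replicate 2, edgeR's adjusted p was 0.268 and 0.172 for Pgam2, 0.423 and 0.18 for Cldn5 and 0.235 and 0.103 for 2600014E21Rik.

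**Figure D5:**
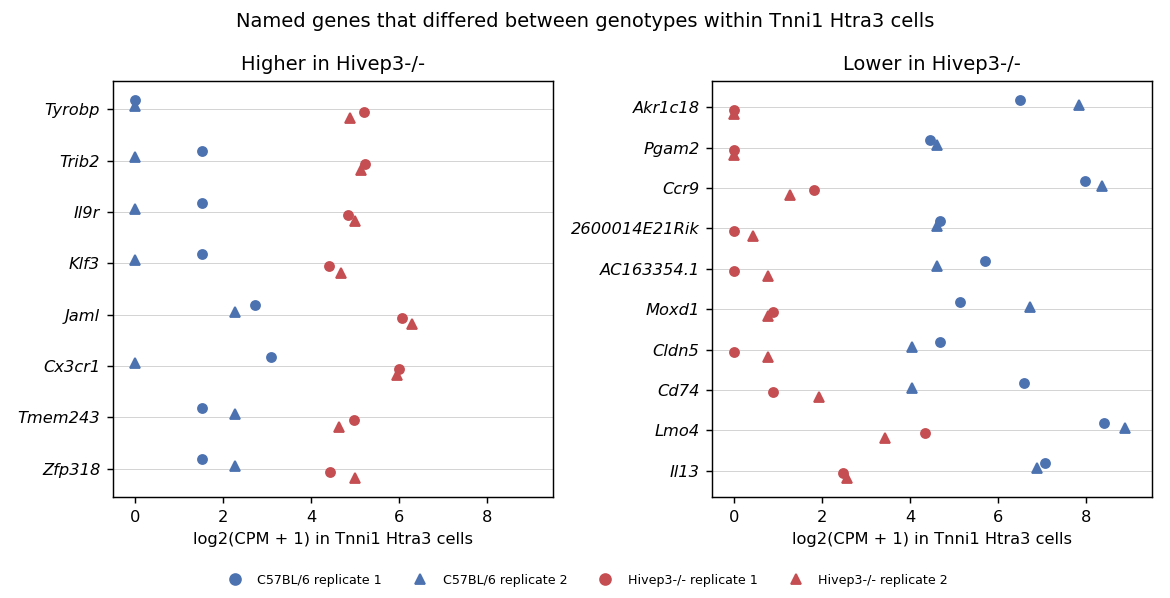
Levels of 8 of the 10 largest rises (left) and the 10 largest falls (right) among genes that differed between genotypes within Tnni1 Htra3 cells, as log2(CPM + 1) (x axis) in each library. Points are libraries summed over their members, and no gene has overlapping genotypes, as in Ccr9 at 250 and 328 CPM against 2.49 and 1.40 CPM.

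Some of these differences were larger or smaller in the set than in the rest of the Cd24a-negative, non-dividing cells, and for others no such difference was found. The genotype difference in the set was tested against that in all other Cd24a-negative, non-dividing cells of the same libraries, as an interaction with the library as a block. Of 11440 genes tested, 277 passed edgeR's test (2.42%), 164 with the difference more positive (1.43%) and 113 with it more negative (0.988%) in the set, and the median was 0.07. Of the 235 genes called within the set, 141 were among the 277. In the other cells alone 66 of 11834 genes tested were called, of which 26 were among the 235. The make-up of the other cells also differed, with 34.3% and 40.5% iNKT1-marker cells in C57BL/6 and 51.9% and 49.5% in Hivep3-/- mice. Its part in these counts was not tested. The 277 fell to 148 without Hivep3-/- replicate 1 and to 133 without replicate 2, and DESeq2 called 74.

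The 5 genes with the smallest interaction p were Lmo4, Inpp4b, Cd52, Il2rb and Nrgn. Inpp4b, a phosphoinositide phosphatase gene, fell from 144 and 154 CPM to 18.2 and 17.2 CPM in the set while it was at 203 and 223 CPM and at 239 and 181 CPM in the other cells, an interaction of -3.02 on the log2 scale (adjusted p = 9.38e-31 by edgeR). Nrgn, which encodes the calmodulin-binding protein neurogranin, was high in the C57BL/6 set (1552 and 1860 CPM), lower in the Hivep3-/- set (423 and 422 CPM) and at 104 to 189 CPM in the other cells (interaction -1.46, adjusted p = 1.07e-27 by edgeR). Cd52 was at 4000 and 4416 CPM and at 3611 and 3682 CPM in the other cells (interaction -0.999). The other cells leave out the non-dividing Cd24a-positive cells (88, 37, 128 and 169 cells), in which both genes were also lower in Hivep3-/- mice, Inpp4b at 114 and 65.7 CPM against 13.3 and 28.4 CPM and Cd52 at 2142 and 1625 CPM against 714 and 834 CPM. These falls were not tested there. Lmo4 was lower in Hivep3-/- mice in the other Cd24a-negative, non-dividing cells too, at 338 and 211 CPM against 69.7 and 81.5 CPM. Its fall was thus shared with those cells but larger in the set (interaction -2.86). For Il2rb the interaction was 1.91 (adjusted p = 9.9e-29 by edgeR), and DESeq2 did not call it (adjusted p = 0.726).

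For Klra1, Zbtb16 and Cx3cr1 no difference from the rest of the cells was found by this test. Klra1 rose by 1.79 in the set and by 1.59 on the log2 scale in the other cells (interaction 0.18, adjusted p = 0.784 by edgeR), Zbtb16 had -1.12 and -1.02 (interaction -0.03, adjusted p = 0.98 by edgeR) and Cx3cr1 3.51 and 3.17 (interaction 0.30, adjusted p = 0.955 by edgeR). A p that misses the threshold does not show that 2 differences are equal. Drosha fell by 3.75 in the set and by 2.84 in the other cells, with an interaction of -0.83 (adjusted p = 0.000381 by edgeR) that did not pass without C57BL/6 replicate 2 (-0.54, adjusted p = 0.168) or Hivep3-/- replicate 2 (-0.40, adjusted p = 0.977). Klhdc2, which was chosen as a marker of the set and is described with no test, was at 138 and 65.6 CPM and at 605 and 534 CPM in the set, and at 47.1 and 37.4 CPM and at 77.5 and 76.7 CPM in the other cells.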

How the data were processed

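Thymic iNKT cells of 2 C57BL/6 and 2 Hivep3-/- mice were analysed from the deposited UMI counts per gene and cell. The authors made these counts with Cell Ranger 3.1.0 on mm10, and the submitters' notes also name Seurat 3.1.4. The libraries held 48291764, 31381738, 40096012 and 35718171 UMIs. Cells with at least 500 and fewer than 4100 genes, at least 1000 UMIs and under 6% mitochondrial UMIs were kept. Counts were summed over the members of each library and compared with edgeR 4.0.16's quasi-likelihood test (TMM, Benjamini-Hochberg adjustment), with DESeq2 1.42.0 as an alternative, in R 4.3.3. Cells were clustered with scanpy 1.11.5. In the genotype test on simulated data, 22.2% of 2-fold and 77.1% of 4-fold changes were recovered among 8037 genes, with 1 false call. In the interaction test, 46.0% and 92.0% were recovered among 11249 genes, with 5 false calls. The simulation gave every gene the same dispersion and changed only the more abundant genes. These figures therefore do not cover genes with few UMIs or genes that vary more than the rest. Named genes were the members of the lists that were called, the 10 largest called rises and falls without overlap between genotypes, the 15 highest and 10 lowest in the set and the 5 interactions of smallest p. The members and lists were chosen with earlier results of these data known. The labels name separate mice, and p-values of the genotype test measure only the spread between these 4 samples. Those of the interaction measure how the difference between set and other cells varies among the same 4 samples. With so few libraries edgeR estimates the spread of a gene partly from all genes. Very small p-values, as for the interactions, rest on that sharing and not on these mice alone. Alternatives were another tool, no filter on low counts, stricter rules, doublet and depth filters, other comparison cells and leaving out each library. Some genes that these rules name are not reported here.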

Additional observations from a re-analysis of the deposited data

Results flagged for a closer look

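For 42 of the genes named here for a difference between genotypes, for their interaction p or as iNKT1 or iNKT2 genes, the genotype difference in Tnni1 Htra3 cells differed from that in the other Cd24a-negative, non-dividing cells by edgeR's interaction test. They are listed because they passed it, as 2.42% of all 11440 genes tested did, so their number is not itself a result. The interactions on the log2 scale were -2.86 for Lmo4, -3.02 for Inpp4b, -0.999 for Cd52, 1.91 for Il2rb and -1.46 for Nrgn, the 5 of smallest p. Among iNKT2 genes they were -1.62 for Il13, -1.20 for Icos, -2.40 for Il17rb, -3.13 for Ccr9 and -1.64 for Maf, and 1.28 for Plac8, which fell in the set. Among iNKT1 genes they were 0.72 for Nkg7, 1.19 for Klrd1, 0.90 for Ly6c2, 0.53 for Ctsw and -0.58 for Id2.

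Among the largest rises and falls they were 3.55 for Trib2, 3.88 for Klf3, 2.36 for Jaml, 3.05 for Tmem243, -4.29 for AC163354.1 and -4.28 for Cd74. The fitted -11.94 for Akr1c18 and -8.00 for Pgam2, which had 0 UMIs in the Hivep3-/- set, depend on how 0 is handled and are no measure of size. Among transcription factor genes they were 1.83 for Runx3, 1.03 for Ikzf2, 0.87 for Tcf7, -0.72 for Lef1 and -1.32 for Bcl11b, and among genes of exit and homing 1.61 for S1pr1, 2.14 for Klf2 and 0.96 for Itgb7. They were 0.66 for Trbc1, 0.39 for Cd3e, 0.68 for Cd247, 1.42 for Ubash3b, 0.96 for Ighm and -1.72 for Tcrg-C1, and -0.83 for Drosha, 1.51 for Hdac7, -2.05 for Bcl2a1b and -2.36 for Bcl2a1d.

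Some of these calls were lost when 1 library was left out (adjusted p by edgeR in parentheses). Without C57BL/6 replicate 1 this held for Id2 (-0.21, 0.482), Trib2 (0.121), Klf3 (0.0708), Pgam2 (0.0795), AC163354.1 (-3.22, 0.0901), Cd74 (-3.40, 0.0556), Cd247 (0.61, 0.247), S1pr1 (1.51, 0.291), Tcf7 (0.53, 0.575) and Hdac7 (1.36, 0.131). Without C57BL/6 replicate 2 it held for Nkg7 (0.13, 0.862), Ly6c2 (0.37, 0.798), Ctsw (0.10, 0.84), Maf (-1.35, 0.393), Trib2 (2.91, 0.143), Jaml (1.93, 0.121), Tmem243 (2.46, 0.376), Pgam2 (0.117), Ighm (0.68, 0.285), Trbc1 (0.24, 0.816), Cd3e (0.26, 0.0669) and Drosha (-0.54, 0.168).

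Without Hivep3-/- replicate 1 calls were lost for Ly6c2 (0.84, 0.196), Id2 (-0.50, 0.137), Il13 (-0.83, 0.943), Maf (-1.67, 0.096), Pgam2 (0.812), Trbc1 (0.57, 0.572), Cd3e (0.48, 0.129), Cd247 (0.52, 0.618) and Tcf7 (0.87, 0.0983). Without Hivep3-/- replicate 2 they were lost for Nkg7 (0.39, 0.755), Klrd1 (0.69, 0.521), Ctsw (0.49, 0.228), Maf (-1.60, 0.16), Trib2 (3.43, 0.0868), Pgam2 (0.52), Lef1 (-0.58, 0.189), Ighm (0.84, 0.241), Trbc1 (0.80, 0.089), Cd3e (0.34, 0.647), Tcf7 (0.86, 0.118) and Drosha (-0.40, 0.977). The Maf interaction stayed between -1.35 and -1.67 in the 3 of these fits without 1 library that lost its call. Its call was also lost with DESeq2 (-1.68, adjusted p = 0.0724) and against iNKT1-marker cells (-1.28, adjusted p = 0.136 by edgeR). With at least 3 markers it turned to 0.46.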

How the results depend on the processing

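The direction of the share by genotype held under each setting run, but all settings used the same markers and so do not test it. The C57BL/6 and Hivep3-/- means were 0.145% and 2.83% at 2000 UMIs, 0.200% and 3.82% with at least 3 markers, 0.159% and 2.35% with Tnni1 and Htra3 both detected, and 0.0363% and 0.890% with at least 3 markers at 2000 UMIs, a setting chosen after seeing the data. Leaving out 1 library gave 0.520% to 0.802% and 4.63% to 6.72%. The 235 genes called between genotypes became 152 with DESeq2 (51 higher, 101 lower, 151 of them among the 235), 436 with no filter on low counts (240 higher, 196 lower), 99 with at least 3 markers (89 of them among the 235), 168 without the highest doublet scores (64 higher, 104 lower) and 239 to 336 without 1 library, where the lone library of a genotype is assumed to vary like the others. The 277 interactions became 74 with DESeq2 (24 higher, 50 lower), 171 with at least 3 markers (131 higher, 40 lower), 308 without the highest doublet scores, 315 against iNKT2-marker cells (143 higher, 172 lower), 389 against iNKT1-marker cells and 133 to 256 without 1 library. With at least 3 markers the interaction turned to 0.49 for Il13, 0.074 for Icos, 0.46 for Maf, 0.85 for Bcl2a1b and 2.18 for Akr1c18, none called by edgeR (adjusted p = 0.919, 0.959, 0.954, 0.901 and 1), and against iNKT1-marker cells to -0.63 for Plac8 and 0.25 for Lef1 (adjusted p = 0.159 and 0.494). The cause was not tested. Over the named genes and alternatives, 527 values of the difference between genotypes kept their side of the threshold, 84 lost the call, 3 gained it and 0 changed direction. For the 42 named interactions, 354 values were kept, 100 lost the call and 7 changed direction. DESeq2 kept 20 and lost 21. Against iNKT2-marker cells 33 were kept and 9 lost, among them Cd247 (0.06, adjusted p = 0.942 by edgeR). Against iNKT1-marker cells 32 were kept, 8 lost and 2 changed direction. Ccr9 (-2.35, adjusted p = 0.662 by edgeR) and S1pr1 (0.76, adjusted p = 0.444 by edgeR) were among those lost.

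With the replicate number as a block, 526 genes were called (255 higher, 271 lower), all 235 among them, and Hivep3 passed (0.98, adjusted p = 0.00127 by edgeR). The numbers mark no shared litter or day in the labels, and the deviations of same-numbered libraries correlated at r = 0.0879 over 8327 genes in the set, which are not independent replicates. Depth limits the C57BL/6 side most, with 77 members and 788182 UMIs over both libraries.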
